A study of Mus musculus with 37 samples.

Results

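Small leucine-rich proteoglycans are the subject here, a family of secreted matrix proteins represented by 9 genes: decorin (Dcn), biglycan (Bgn), asporin (Aspn), fibromodulin (Fmod), lumican (Lum), prolargin (Prelp), osteomodulin (Omd), osteoglycin (Ogn) and podocan (Podn). They were chosen by name, as a family, with measured values of these data in view, and which comparison prompted the choice is not recorded. Their values are therefore a description throughout, and an adjusted p only marks which members passed a threshold that was applied to every gene. All 9 were among the 30892 genes listed for cardiac fibroblasts (CFs) and among the 31053 genes listed for single cells. Of the 20158 genes listed for neonatal rat ventricular myocytes (NRVMs), 7 are members, and Omd and Podn have no row there.

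ENPP1 is a membrane enzyme that hydrolyses ATP to AMP, and the study asked what cardiomyocytes exposed to these products release to other cells. Cardiomyocyte cultures were treated with vehicle, ENPP1, ATP, ENPP1 together with ATP (ENPP1+ATP) or AMP, and their conditioned medium was placed on sparsely seeded cells that had spent a day without serum. The receiving cells were CFs of wild type C57BL/6 mice, immortalized and therefore 1 cell line, for 24 h or 48 h (2 libraries for each of 5 media at each time, 20 in all), or wild type NRVMs of Sprague-Dawley rats for 24 h (3 libraries for each medium, 15 in all). Single cells were the nonmyocytes of injured C57BL/6 hearts at 7 days after myocardial infarction, with 1 library of ENPP1CKO mice and 1 of controls labelled wild type. In ENPP1CKO mice a tamoxifen-inducible Cre under Col1a2 control deletes floxed Enpp1 in collagen-expressing cells, so other cell types keep the gene. The number of hearts behind each single-cell library is not given in the sources used here. The methods of the study describe its replicates in general as biological, but nothing in the labels says that numbered libraries came from separate cultures, so p-values measure only the spread between these libraries.

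Small leucine-rich proteoglycans consist of a protein core of leucine-rich repeats that folds into a curved solenoid, usually carrying chains of chondroitin, dermatan or keratan sulfate. The cores bind collagen fibrils and govern their diameter and spacing, and several also bind growth factors of the TGF-beta family or cell-surface receptors. In the heart they are made mainly by fibroblasts and are laid down in the matrix of healing scars. Decorin, biglycan and asporin form class I, fibromodulin, lumican, prolargin and osteomodulin class II, osteoglycin belongs to class III, and podocan to a noncanonical class.

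The CF libraries held 32184799 to 115824659 counts and the NRVM libraries 13481389 to 16977980, and levels are given as counts per 1000000 (CPM) of library sizes scaled by TMM factors. Of all genes, 17879 in CFs and 13461 in NRVMs had enough counts to be tested. All 12 fibroblast markers were listed in CFs, with a summed level of 9122 to 9583 CPM with vehicle medium at 24 h and 9075 to 9495 at 48 h. That sum was 3957 to 4213 CPM with AMP and 4864 to 4962 with ENPP1+ATP at 24 h, 5249 to 5587 and 5011 to 5297 at 48 h, and 6925 to 7359.8 with ATP at 24 h. With ENPP1+ATP the 8 cell cycle markers summed to 3423 to 3695 CPM at 24 h against 1582 to 1598 with vehicle medium, and the 12 macrophage markers to 64.7 to 74.1 at 48 h against 12.1 to 12.9. Of the macrophage sum, Cd68 was 47.8 to 58.7 CPM with ENPP1+ATP at 48 h, while C1qa was at most 0.167 CPM in any CF library. The 10 smooth muscle or pericyte markers summed to 129 to 134 CPM with vehicle medium at 48 h, 359 to 373 with ENPP1+ATP and 403 to 431 with AMP. The part of these shifts in the members' values was not tested.

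In the mouse genome (GRCm38, the mm10 build named in the submitters' processing notes) the members lie in 3 neighbourhoods and at 2 sites of their own. Aspn (chr13:49544443-49567565), Omd (chr13:49582462-49592822) and Ogn (chr13:49608046-49624501) follow each other on the forward strand of chromosome 13, all inside the span of Cenpp, a protein-coding gene of the opposite strand. Dcn (chr10:97479609-97518143) and Lum (chr10:97565128-97572703) share the forward strand of chromosome 10. Fmod (chr1:134037254-134048277, forward) and Prelp (chr1:133910304-133921414, reverse) are close together on chromosome 1. Bgn (chrX:73483602-73495933, forward) is X-linked, and Podn (chr4:108014791-108096445) is on the reverse strand of chromosome 4, overlapping Scp2 of the same strand. Whether the counting used strand is not given in the sources used here, so reads where genes overlap could have been assigned to either. Cenpp measured 4.91 to 11.1 CPM over the CF libraries and was higher at 24 h with AMP (8.83 to 11.1 CPM) and ENPP1+ATP (10.1 to 10.8) than with vehicle medium (5.54 to 6.12). At 48 h it measured 5.56 to 5.70 CPM with AMP and 4.91 to 7.17 with ENPP1+ATP, against 5.66 to 6.26 with vehicle medium. The part of Cenpp reads in the values of Aspn, Omd and Ogn was not tested. Scp2 measured 42.9 to 64.3 CPM in CFs.

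Promoters are shown for the chromosome 13 neighbours, which were low with AMP and ENPP1+ATP, and for Podn, which was high. Each is the 250 bases before a RefSeq transcript start (GRCm38.p6), written 5' to 3' on the strand of the gene, with matches to 7 motifs in capitals: the TATA box TATAAA, the SMAD box CAGAC, the AP-1 site TGANTCA, the CRE core TGACG, the forkhead motif GTAAACA, the TEAD motif CATTCC and the GC box GGGCGG, each on both strands. RefSeq starts were available for 7 of the 9 members, and Podn has 2.
Aspn (chr13:49544193-49544442, forward): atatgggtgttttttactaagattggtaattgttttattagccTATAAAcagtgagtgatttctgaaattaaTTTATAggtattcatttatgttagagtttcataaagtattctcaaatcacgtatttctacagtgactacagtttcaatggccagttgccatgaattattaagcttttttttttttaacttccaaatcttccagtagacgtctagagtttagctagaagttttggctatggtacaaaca
Omd (chr13:49582212-49582461, forward): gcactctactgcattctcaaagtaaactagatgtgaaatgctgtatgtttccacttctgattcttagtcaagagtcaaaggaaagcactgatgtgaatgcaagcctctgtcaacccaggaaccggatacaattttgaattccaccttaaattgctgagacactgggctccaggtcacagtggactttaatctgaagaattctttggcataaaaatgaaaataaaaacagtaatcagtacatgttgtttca
Ogn (chr13:49607765-49608014, forward): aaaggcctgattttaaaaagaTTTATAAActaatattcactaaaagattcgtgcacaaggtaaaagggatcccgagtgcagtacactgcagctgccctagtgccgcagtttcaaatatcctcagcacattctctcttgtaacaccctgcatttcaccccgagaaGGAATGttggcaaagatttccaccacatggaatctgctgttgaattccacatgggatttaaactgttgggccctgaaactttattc
Podn start 1 (chr4:108030987-108031236, reverse): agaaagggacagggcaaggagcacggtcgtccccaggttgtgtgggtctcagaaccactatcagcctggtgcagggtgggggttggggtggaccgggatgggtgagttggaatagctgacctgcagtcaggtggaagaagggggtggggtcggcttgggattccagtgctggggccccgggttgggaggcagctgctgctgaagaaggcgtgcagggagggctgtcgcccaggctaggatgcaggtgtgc
Podn start 2 (chr4:108031955-108032204, reverse): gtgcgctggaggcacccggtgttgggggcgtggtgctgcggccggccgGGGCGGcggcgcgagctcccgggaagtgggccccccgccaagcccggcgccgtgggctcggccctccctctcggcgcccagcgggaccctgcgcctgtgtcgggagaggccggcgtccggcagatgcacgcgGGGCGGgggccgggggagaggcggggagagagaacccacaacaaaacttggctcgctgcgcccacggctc

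The Aspn window holds TATAAA 207 bases before the start and its reverse complement 178 bases before it. The Ogn window holds the same letters on both strands, overlapping each other, 229 and 227 bases before the start, and CATTCC on the reverse strand at 86 bases. The Omd window, between these genes on the chromosome, holds none of the 7 motifs. TATAAA occurs in 12.4% and CATTCC in 12.6% of the 32851 promoters of the same length. The letters of the AP-1 (6.75% of promoters), CRE (17.8%) and forkhead (3.17%) motifs are in none of the members' windows. G and C make up 30% of the Aspn window, 38.4% of the Omd window and 42% of the Ogn window, against 64% and 78% for the Podn windows. Podn start 2 holds GGGCGG at 202 and 70 bases before the start, a motif of 32.7% of promoters, and start 1 holds none of the 7. Of the members not printed, Bgn has 3 GC boxes, and Fmod and Prelp hold the SMAD box letters, as do 42.2% of promoters. These matches describe letters and not sites that a factor was shown to use.

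Compared with vehicle medium, ENPP1+ATP and AMP media changed most of the family in CFs, and no member passed the test with ENPP1 medium. Aspn, Ogn, Omd and Fmod were lower, except that Fmod did not pass with ENPP1+ATP at 24 h, Podn and Dcn were higher, and Prelp changed direction between the times with AMP. At 24 h, 7 of 9 members passed an adjusted p of 0.05 with ENPP1+ATP (2 higher, 5 lower), where 49.1% of the 17879 genes tested passed, 23.9% higher and 25.3% lower. With AMP 8 passed (2 higher and 6 lower, of all genes 52.8%, 25.3% higher and 27.5% lower), and with ATP 4 (1 higher and 3 lower, of all genes 11.1%, 4.77% higher and 6.32% lower). At 48 h, 7 passed with ENPP1+ATP (3 higher and 4 lower, of all genes 45.2%, 20.8% higher and 24.4% lower), 7 with AMP (3 higher and 4 lower, of all genes 44.0%, 21.1% higher and 22.9% lower) and 5 with ATP (2 higher and 3 lower, of all genes 7.83%, 5.35% higher and 2.48% lower). Leaving out any 1 of the 4 libraries gave fewer genes with ATP, 920 to 1205 instead of 1983 at 24 h and 646 to 929 instead of 1400 at 48 h. In CFs each such fit leaves a group of 1 library, which is assumed to vary like the other groups. With ENPP1 the edgeR test called 0 members at each time, 0 had an unadjusted p under 0.05, DESeq2 called 0, and the background was 0%. Without ENPP1 replicate 2, 129 of all genes and 0 members were called at 48 h. The comparisons at a time share the same vehicle libraries, so their agreement is not independent. In cultures of many cells, fewer cells making a transcript and less transcript per cell cannot be told apart.

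**Figure D1:**
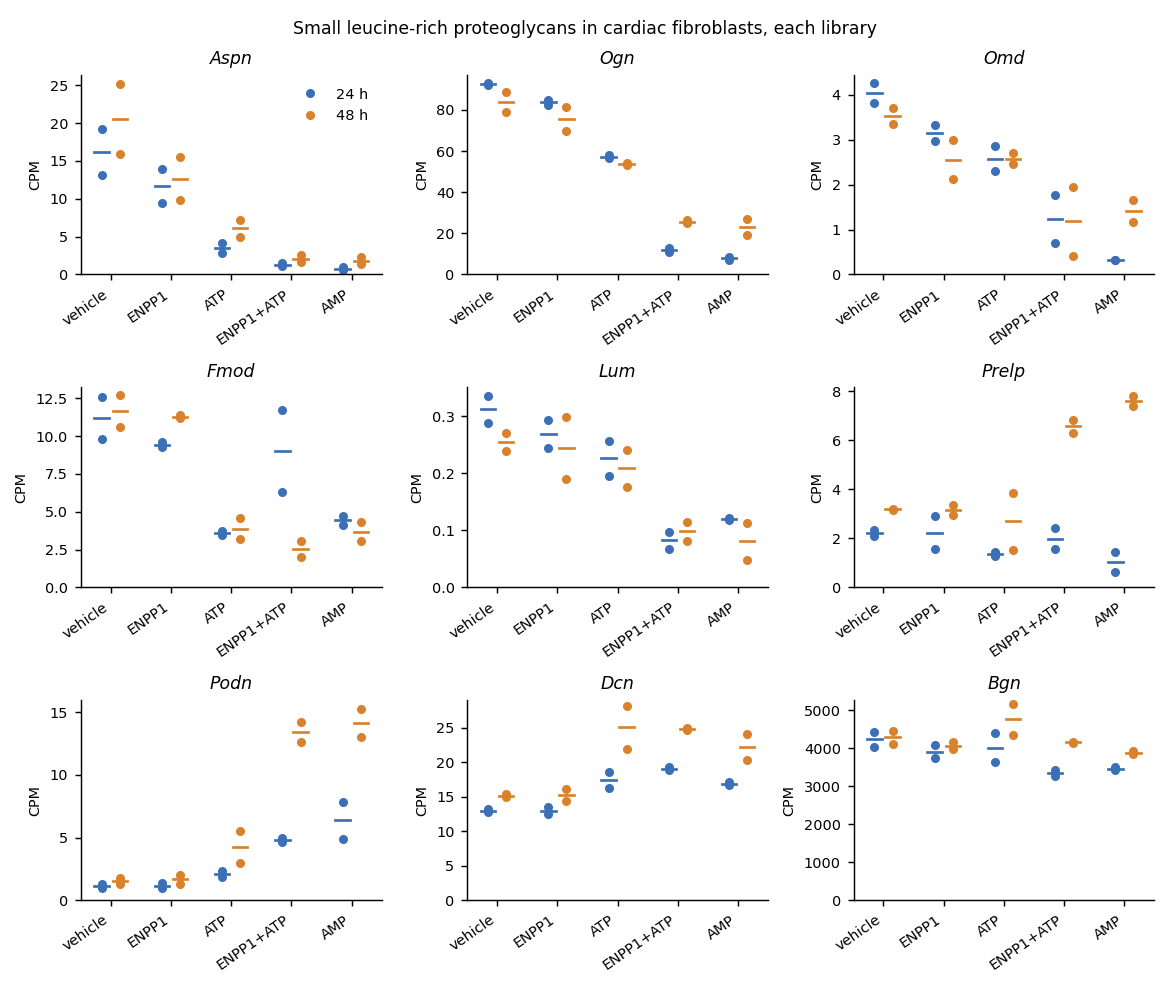
Level of each of the 9 members in CFs (CPM, linear axis) by medium and time, with a point for each library and a bar at the mean of 2 libraries. Aspn, Ogn and Omd are low and Podn is high with AMP and ENPP1+ATP at each time, ATP lies between for Aspn and Ogn, and no ENPP1 change passed the test.

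Decorin, the class I proteoglycan that binds collagen and TGF-beta, was modestly higher with ATP, AMP and ENPP1+ATP media. At 24 h, Dcn measured 12.8 and 13.3 CPM with vehicle medium, 12.4 and 13.5 with ENPP1, 16.2 and 18.6 with ATP, 16.7 and 17.2 with AMP and 18.9 and 19.4 with ENPP1+ATP. The values at 48 h were 14.9 and 15.4 CPM with vehicle medium, 14.4 and 16.1 with ENPP1, 28.2 and 22 with ATP, 20.4 and 24.2 with AMP and 24.9 and 24.7 with ENPP1+ATP. Every ATP, AMP and ENPP1+ATP library lay above every vehicle and ENPP1 library of its time. The log2 fold changes from vehicle medium (± SE, here and throughout) at 24 h were 0.56 ± 0.11 (adjusted p = 9.8e-05) with ENPP1+ATP, 0.38 ± 0.11 (adjusted p = 0.00341) with AMP and 0.42 ± 0.11 (adjusted p = 0.00933) with ATP, and at 48 h 0.71 ± 0.11 (adjusted p = 4.5e-06) with ENPP1+ATP, 0.56 ± 0.11 (adjusted p = 1.2e-04) with AMP and 0.73 ± 0.11 (adjusted p = 3.5e-05) with ATP. The call with ATP at 24 h was lost without ATP replicate 2 or vehicle replicate 1 (adjusted p = 0.121 to 0.153).

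Biglycan, the class I member which can also act through Toll-like receptors, was by far the most abundant. It ranked 6 of 30892 genes by mean CPM in CFs and made up 96.7% to 99.0% of the summed CPM of the members in each library. At 24 h, Bgn measured 4433 and 4038 CPM with vehicle medium, 4078 and 3729 with ENPP1, 4396 and 3636 with ATP, 3491 and 3436 with AMP and 3418 and 3274 with ENPP1+ATP. By 48 h its values were 4460.2 and 4105 CPM with vehicle medium, 4152 and 3985 with ENPP1, 4349.9 and 5164 with ATP, 3919 and 3835 with AMP and 4146 and 4162 with ENPP1+ATP. At 24 h the AMP and ENPP1+ATP libraries lay below all other libraries of that time, and at 48 h the ENPP1+ATP libraries lay inside the vehicle range. Its changes were small, -0.34 ± 0.08 (adjusted p = 0.0013) with ENPP1+ATP, -0.29 ± 0.08 (adjusted p = 0.00437) with AMP and -0.08 ± 0.08 (adjusted p = 0.701) with ATP at 24 h, and -0.04 ± 0.08 (adjusted p = 0.691) with ENPP1+ATP, -0.14 ± 0.08 (adjusted p = 0.159) with AMP and 0.15 ± 0.08 (adjusted p = 0.347) with ATP at 48 h. At 24 h the AMP call was lost without vehicle replicate 1 (adjusted p = 0.0575).

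Asporin, a class I member that lacks glycosaminoglycan chains and binds TGF-beta and collagen, had the largest fall of the members with ENPP1+ATP and AMP at each time. At 24 h, Aspn measured 19.2 and 13.2 CPM with vehicle medium, 13.9 and 9.48 with ENPP1, 4.2 and 2.86 with ATP, 0.973 and 0.536 with AMP and 1.49 and 1.11 with ENPP1+ATP. By 48 h the level was 25.2 and 16 CPM with vehicle medium, 15.5 and 9.81 with ENPP1, 5.0 and 7.2 with ATP, 2.28 and 1.38 with AMP and 1.61 and 2.6 with ENPP1+ATP. Libraries with ATP, AMP and ENPP1+ATP lay below all vehicle and ENPP1 libraries at each time, and the ATP libraries lay above those with AMP and ENPP1+ATP. Against vehicle medium the log2 fold changes at 24 h were -3.65 ± 0.44 (adjusted p = 1.7e-05) with ENPP1+ATP, -4.53 ± 0.46 (adjusted p = 3.7e-06) with AMP and -2.21 ± 0.38 (adjusted p = 0.00235) with ATP. At 48 h they were -3.31 ± 0.41 (adjusted p = 3.0e-05) with ENPP1+ATP, -3.50 ± 0.42 (adjusted p = 2.1e-05) with AMP and -1.76 ± 0.36 (adjusted p = 0.00944) with ATP. The call with ATP at 48 h was lost without ATP replicate 1 or vehicle replicate 1 (adjusted p = 0.102 to 0.144).

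Fibromodulin, a class II member that guides collagen cross-linking, was lower with ATP and AMP at each time and with ENPP1+ATP at 48 h. At 24 h, Fmod measured 12.6 and 9.8 CPM with vehicle medium, 9.58 and 9.27 with ENPP1, 3.46 and 3.7 with ATP, 4.13 and 4.73 with AMP and 11.7 and 6.29 with ENPP1+ATP. At 48 h its level was 12.7 and 10.6 CPM with vehicle medium, 11.4 and 11.2 with ENPP1, 4.56 and 3.18 with ATP, 4.3 and 3.05 with AMP and 2.02 and 3.08 with ENPP1+ATP. The ENPP1+ATP libraries overlapped the vehicle range at 24 h, with replicate 1 inside it, and lay below it at 48 h. Log2 fold changes at 24 h were -0.33 ± 0.23 (adjusted p = 0.27) with ENPP1+ATP, -1.34 ± 0.24 (adjusted p = 1.5e-04) with AMP and -1.66 ± 0.25 (adjusted p = 2.2e-04) with ATP, and at 48 h -2.20 ± 0.27 (adjusted p = 2.3e-06) with ENPP1+ATP, -1.67 ± 0.25 (adjusted p = 3.3e-05) with AMP and -1.58 ± 0.25 (adjusted p = 4.5e-04) with ATP. The 24 h change rested on single libraries, as it was -0.84 and passed without ENPP1+ATP replicate 1 (adjusted p = 0.00452), and was 0.061 without ENPP1+ATP replicate 2 (adjusted p = 0.852). It also passed with no filter on low counts (-0.36, adjusted p = 0.0406).

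Lumican, which keeps collagen fibrils thin and is a major proteoglycan of the cornea, was near the limit of measurement in these CFs. Over the 20 libraries Lum measured 0.0481 to 0.336 CPM, or 2 to 33 counts. Every AMP and ENPP1+ATP library (at most 0.122 CPM) lay below every other library (at least 0.177). The log2 fold changes from vehicle medium were -1.36 with AMP at 24 h, and -1.34 with ENPP1+ATP and -1.62 with AMP at 48 h, which did not pass. Only ENPP1+ATP at 24 h passed, with a log2 fold change of -1.88 ± 0.71 (adjusted p = 0.0309), and this call was lost without any 1 of its 4 libraries (adjusted p = 0.095 to 0.182).

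Prolargin, which anchors basement membranes to the underlying collagen, differed by time. At 24 h, Prelp measured 2.34 and 2.09 CPM with vehicle medium, 2.89 and 1.55 with ENPP1, 1.26 and 1.44 with ATP, 0.632 and 1.45 with AMP and 1.57 and 2.4 with ENPP1+ATP. By 48 h it measured 3.15 and 3.2 CPM with vehicle medium, 2.96 and 3.36 with ENPP1, 3.86 and 1.54 with ATP, 7.4 and 7.79 with AMP and 6.82 and 6.3 with ENPP1+ATP. The AMP and ENPP1+ATP libraries at 48 h lay above all other CF libraries. The log2 fold changes at 24 h were -0.16 ± 0.36 (adjusted p = 0.744) with ENPP1+ATP, -1.02 ± 0.37 (adjusted p = 0.026) with AMP and -0.72 ± 0.37 (adjusted p = 0.284) with ATP, and at 48 h 1.05 ± 0.33 (adjusted p = 0.0149) with ENPP1+ATP, 1.26 ± 0.33 (adjusted p = 0.00432) with AMP and -0.21 ± 0.35 (adjusted p = 0.863) with ATP. The last of these turned direction with single libraries, from -1.04 without ATP replicate 1 to 0.28 without ATP replicate 2. The fall with AMP at 24 h was lost without AMP replicate 1, vehicle replicate 1 or vehicle replicate 2 (adjusted p = 0.0543 to 0.212), and was -1.82 without AMP replicate 2. The rise with ENPP1+ATP at 48 h was lost without ENPP1+ATP replicate 1, ENPP1+ATP replicate 2, vehicle replicate 1 or vehicle replicate 2 (adjusted p = 0.0512 to 0.0853).

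Osteomodulin, a keratan sulfate proteoglycan best known from bone, was present at a few CPM. At 24 h, Omd measured 3.82 and 4.25 CPM with vehicle medium, 3.33 and 2.97 with ENPP1, 2.85 and 2.3 with ATP, 0.316 and 0.314 with AMP and 0.71 and 1.77 with ENPP1+ATP. The 48 h libraries stood at 3.35 and 3.7 CPM with vehicle medium, 2.99 and 2.12 with ENPP1, 2.69 and 2.45 with ATP, 1.66 and 1.17 with AMP and 1.95 and 0.406 with ENPP1+ATP. The AMP and ENPP1+ATP libraries lay below the vehicle libraries at each time, while the ENPP1+ATP libraries differed widely from each other. Log2 fold changes at 24 h were -1.69 ± 0.42 (adjusted p = 0.00239) with ENPP1+ATP, -3.66 ± 0.49 (adjusted p = 3.1e-06) with AMP and -0.64 ± 0.39 (adjusted p = 0.402) with ATP, and at 48 h -1.55 ± 0.43 (adjusted p = 0.00595) with ENPP1+ATP, -1.32 ± 0.42 (adjusted p = 0.0154) with AMP and -0.45 ± 0.40 (adjusted p = 0.677) with ATP. The value with ENPP1+ATP depended on 1 library at each time: at 24 h it was -2.49 without ENPP1+ATP replicate 2, and at 48 h -3.11 without replicate 1 and -0.85 without replicate 2. The call at 48 h was lost without ENPP1+ATP replicate 2 (adjusted p = 0.0529) for ENPP1+ATP and without AMP replicate 2 or vehicle replicate 2 (adjusted p = 0.0729 to 0.147) for AMP.

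Osteoglycin, the class III member, was the highest member per kilobase after Bgn with vehicle medium, and it fell with ATP, AMP and ENPP1+ATP. At 24 h, Ogn measured 91.9 and 92.9 CPM with vehicle medium, 84.8 and 82.6 with ENPP1, 56.4 and 58.2 with ATP, 8.44 and 7.26 with AMP and 10.9 and 12.7 with ENPP1+ATP. At 48 h it measured 88.8 and 79.1 CPM with vehicle medium, 81.4 and 69.9 with ENPP1, 53.3 and 54.1 with ATP, 27 and 19 with AMP and 26.3 and 25.2 with ENPP1+ATP. With AMP and ENPP1+ATP every library lay below every ATP library of the same time, and every ATP library lay below every vehicle and ENPP1 library. Against vehicle the log2 fold changes at 24 h were -2.97 ± 0.13 (adjusted p = 2.4e-12) with ENPP1+ATP, -3.57 ± 0.13 (adjusted p = 2.2e-13) with AMP and -0.69 ± 0.11 (adjusted p = 3.3e-04) with ATP. At 48 h they were -1.71 ± 0.12 (adjusted p = 1.5e-09) with ENPP1+ATP, -1.87 ± 0.12 (adjusted p = 4.7e-10) with AMP and -0.65 ± 0.11 (adjusted p = 8.0e-04) with ATP. Leaving out any 1 library ended none of these Ogn calls.

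Podocan, a regulator of smooth muscle growth, had the largest rise in the family. At 24 h, Podn measured 1.33 and 1.01 CPM with vehicle medium, 0.956 and 1.36 with ENPP1, 1.85 and 2.3 with ATP, 4.89 and 7.85 with AMP and 4.99 and 4.64 with ENPP1+ATP. The libraries of 48 h gave 1.27 and 1.77 CPM with vehicle medium, 1.26 and 2.05 with ENPP1, 5.55 and 2.93 with ATP, 13.1 and 15.2 with AMP and 12.6 and 14.2 with ENPP1+ATP. AMP and ENPP1+ATP libraries lay above every vehicle and ENPP1 library at each time, and above both ATP libraries of the same time. The log2 fold changes at 24 h were 1.99 ± 0.29 (adjusted p = 8.9e-06) with ENPP1+ATP, 2.41 ± 0.29 (adjusted p = 4.6e-07) with AMP and 0.78 ± 0.31 (adjusted p = 0.137) with ATP, and at 48 h 3.15 ± 0.29 (adjusted p = 1.6e-08) with ENPP1+ATP, 3.22 ± 0.29 (adjusted p = 1.1e-08) with AMP and 1.5 ± 0.30 (adjusted p = 0.00218) with ATP. The call with ATP at 48 h was lost without ATP replicate 1 or vehicle replicate 1 (adjusted p = 0.0686 to 0.105).

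**Figure D2:**
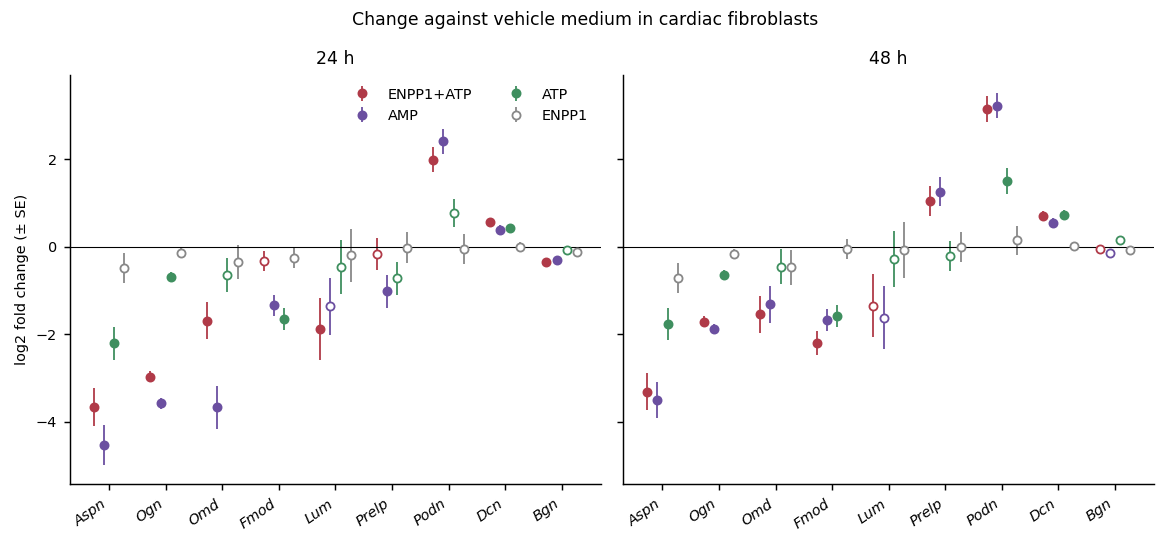
Log2 fold change of each member from vehicle medium in CFs, with its standard error, for each medium at 24 h and 48 h, where filled symbols mark an adjusted p under 0.05. Aspn, Ogn and Omd lie below 0 and Podn above 0 with AMP and ENPP1+ATP, and no ENPP1 symbol is filled.

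ENPP1+ATP and ATP media were also compared directly, to ask what adding the enzyme to ATP changed. At 24 h, 5 of 9 members passed (2 higher and 3 lower with ENPP1+ATP) against 43.9% of all genes (21.8% and 22.1%), and at 48 h 4 (2 higher, 2 lower) against 39.5% (18.2% and 21.3%), so the share at 48 h was close to that of all genes. Ogn was lower with ENPP1+ATP by a log2 difference of -2.28 ± 0.13 (adjusted p = 1.8e-10) at 24 h and -1.06 ± 0.12 (adjusted p = 1.1e-06) at 48 h. The difference for Podn was 1.21 ± 0.29 (adjusted p = 0.00173) and 1.65 ± 0.26 (adjusted p = 3.1e-05). Aspn differed by -1.45 ± 0.49 (adjusted p = 0.0302) and -1.54 ± 0.44 (adjusted p = 0.0136), calls that were lost at 24 h without ATP replicate 1, ENPP1+ATP replicate 1 or ENPP1+ATP replicate 2 (adjusted p = 0.0833 to 0.189) and at 48 h without ATP replicate 2 or ENPP1+ATP replicate 1 (adjusted p = 0.0916 to 0.126). Fmod was higher with ENPP1+ATP at 24 h, with a difference of 1.33 ± 0.26 (adjusted p = 3.9e-04), and not called at 48 h (-0.63 ± 0.29, adjusted p = 0.0991). Bgn differed by -0.26 ± 0.08 (adjusted p = 0.0108) at 24 h, a call lost without ATP replicate 1 or ENPP1+ATP replicate 2 (adjusted p = 0.0896 to 0.27). Prelp at 48 h differed by 1.26 ± 0.34 (adjusted p = 0.00557), which was lost without ATP replicate 2 (adjusted p = 0.0897) and was 2.08 without ATP replicate 1. Omd missed the threshold at -1.05 ± 0.43 (adjusted p = 0.058) at 24 h and -1.09 ± 0.44 (adjusted p = 0.0545) at 48 h. It passed without ENPP1+ATP replicate 2 at 24 h (-1.86, adjusted p = 0.00874) and without ENPP1+ATP replicate 1 at 48 h (-2.66, adjusted p = 6.7e-05), and leaving out the other ENPP1+ATP library gave -0.55 and -0.41. It also passed with the libraries of 24 h alone (adjusted p = 0.00953) and, at 48 h, with the replicate block (adjusted p = 0.0455). At 48 h Bgn missed the threshold at -0.20 (adjusted p = 0.0586), with -0.32 to -0.08 when single libraries were left out. It passed with the replicate block (adjusted p = 0.035), the libraries of 48 h alone (adjusted p = 0.0378), no scaling factor (adjusted p = 0.0255) and no filter on low counts. Lum (-1.42 ± 0.74 and -1.07 ± 0.73) and Dcn (0.13 ± 0.11 and -0.02 ± 0.10) were not called at either time.

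Between 24 h and 48 h no member passed with vehicle or ENPP1 medium, and several did with the other 3 media. With vehicle medium 0 of 9 passed in the edgeR test (1 at an unadjusted p under 0.05, 0 by DESeq2, background 4.88%, 1.68% higher and 3.20% lower), and with ENPP1 0 passed (1 unadjusted, 0 by DESeq2, background 7.95%, 3.06% higher and 4.89% lower). Leaving out any 1 of the 4 libraries lowered these backgrounds, from 873 genes to 235 to 440 with vehicle, from 1421 to 352 to 1077 with ENPP1 and from 2643 to 1387 to 1735 with ATP. With ATP 3 passed, all higher at 48 h (background 14.8%, 8.34% higher and 6.44% lower), with AMP 5, all higher (background 43.1%, 22.3% higher and 20.8% lower), and with ENPP1+ATP 6, 5 higher and 1 lower (background 40.7%, 19.5% higher and 21.2% lower). Ogn was higher at 48 h than at 24 h by 1.57 ± 0.13 (adjusted p = 4.4e-08) on the log2 scale with AMP and 1.12 ± 0.13 (adjusted p = 2.3e-06) with ENPP1+ATP, yet remained below its vehicle level. Podn was higher by 1.13 ± 0.25 (adjusted p = 9.0e-04) with AMP, 1.48 ± 0.26 (adjusted p = 1.0e-04) with ENPP1+ATP and 1.04 ± 0.29 (adjusted p = 0.018) with ATP. Prelp was higher by 2.79 ± 0.36 (adjusted p = 3.5e-06) with AMP, a value of 3.59 without AMP replicate 2 at 24 h, and by 1.72 ± 0.35 (adjusted p = 5.7e-04) with ENPP1+ATP. Omd was higher by 2.16 ± 0.52 (adjusted p = 0.00238) with AMP. With ENPP1+ATP the Omd change was -0.05 and not called, and it ran from -1.61 to 0.76 when single libraries were left out. Fmod was the member called lower, with a change of -1.83 ± 0.27 (adjusted p = 3.3e-05) with ENPP1+ATP. Dcn changes of 0.53 ± 0.11, 0.40 ± 0.10 and 0.38 ± 0.11 with ATP, AMP and ENPP1+ATP passed, as did Bgn changes of 0.24 ± 0.08 with ATP and 0.31 ± 0.08 with ENPP1+ATP. By the edgeR test Aspn (1.37 ± 0.56 with AMP, adjusted p = 0.0721) and Lum were not called with any medium. Aspn with AMP passed with the replicate block in edgeR (adjusted p = 0.0167) and by DESeq2 (adjusted p = 0.0131). Without the filter on low counts it passed with AMP, ATP and ENPP1+ATP.

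Some of these time calls rested on single libraries. With ATP, the Dcn call was lost without the 48 h ATP replicate 1 (adjusted p = 0.0833), the Bgn call without replicate 2 of either time (adjusted p = 0.504 to 0.528) and the Podn call without either 24 h replicate or the 48 h replicate 1 (adjusted p = 0.056 to 0.459). With AMP, the Dcn call was lost without the 48 h AMP replicate 2 (adjusted p = 0.0872). The difference between the effect at 48 h and the effect at 24 h was tested as an interaction, which 3 members passed for ENPP1+ATP (background 30.0%, 15.1% higher and 14.9% lower) and 3 for AMP (background 31.7%, 17.3% higher and 14.4% lower). For ENPP1+ATP these were Ogn (1.26 ± 0.17, adjusted p = 2.0e-05), Fmod (-1.87 ± 0.36, adjusted p = 6.0e-04) and Podn (1.16 ± 0.41, adjusted p = 0.0382). For AMP they were Ogn (1.70 ± 0.17, adjusted p = 6.5e-07), Prelp (2.28 ± 0.50, adjusted p = 0.0014) and Omd (2.35 ± 0.65, adjusted p = 0.0093). Without AMP replicate 2 at 24 h the Prelp value was 3.08. The Podn call was lost without any 1 of 6 libraries, ENPP1+ATP replicate 1 at 24 h, ENPP1+ATP replicate 2 at 24 h, vehicle replicate 1 at 24 h, ENPP1+ATP replicate 1 at 48 h, ENPP1+ATP replicate 2 at 48 h and vehicle replicate 1 at 48 h (adjusted p = 0.06 to 0.266), and the Omd call without AMP replicate 2 at 24 h or replicate 1 at 48 h (adjusted p = 0.0524 to 0.0537).

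Per kilobase of exon, which allows levels of different genes to be compared, the order within the family changed. With vehicle medium at 24 h the mean level was 694 CPM per kb for Bgn, followed by Ogn (36), Aspn (6.88), Fmod (3.39), Dcn (2.23), Omd (1.79), Prelp (0.612), Podn (0.274) and Lum (0.128). With ENPP1+ATP at 48 h Bgn (681 CPM per kb) and Ogn (10) were still the highest, and Dcn (4.25), Podn (3.15) and Prelp (1.81) stood above Aspn (0.893), Fmod (0.772) and Omd (0.524). Podn had been next to last and Aspn the highest after Bgn and Ogn with vehicle medium. Across the 10 groups, Ogn ran in CPM from vehicle at 24 h through vehicle at 48 h, ENPP1, ATP and the 48 h ENPP1+ATP and AMP groups down to ENPP1+ATP and AMP at 24 h. The only neighbours in that order whose ranges overlapped were vehicle at 48 h with ENPP1 at 24 h, and ENPP1+ATP with AMP at 48 h. For Podn the order ran the other way, with AMP and ENPP1+ATP at 48 h on top and overlapping each other, then AMP and ENPP1+ATP at 24 h with ATP at 48 h, and the vehicle and ENPP1 groups at the bottom. The 24 h ATP libraries overlapped ENPP1 at 48 h and lay above the other groups at the bottom.

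Members moved alike in groups over the 20 CF libraries, as described by Pearson's r of log2 CPM. The libraries share media and times, so r reflects the groups as much as the genes. The chromosome 13 neighbours had r of 0.94 (Aspn and Ogn), 0.88 (Ogn and Omd) and 0.80 (Aspn and Omd), and genes that are not neighbours reached like values, with 0.81 for Lum and Ogn, 0.79 for Aspn and Lum, 0.84 for Dcn and Podn and -0.80 for Aspn and Podn. The neighbours Dcn and Lum had -0.59, and Fmod and Prelp -0.18. The 3 genes of highest r to each member, among 10881 or 10882 genes whose log2 CPM averaged 2 or more, were Marveld1 (0.98), Col11a1 (0.98) and Fstl1 (0.97) for Aspn, Fzd8 (0.99), F3 (0.99) and Bdnf (0.99) for Ogn and C1d (0.95), Aifm1 (0.93) and Slc9a7 (0.93) for Omd. For Podn, Bscl2 (0.99) and Foxo3 (0.99) are given, and those of the other members were, for Dcn, Aga (0.94), Susd6 (0.93) and Ctsb (0.92) and, for Bgn, Maf (0.91), Cxcl5 (0.91) and Suds3 (0.88). Fmod was closest to Lfng (0.92), Nrk (0.91) and Serinc5 (0.91), Prelp to Impa2 (0.93), Mapk3 (0.91) and Ano6 (0.91) and Lum, at its few counts, to Greb1l (0.94), Gramd1b (0.94) and Tmem203 (0.93).

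Of 9 further genes of the family, 6 could be tested in CFs, and with ENPP1+ATP 1 rose and 2 fell at each time, a share close to the 49.1% of all genes at 24 h and 45.2% at 48 h. Podnl1, a relative of podocan, had a mean of 29.7 CPM with vehicle medium and 5.85 with ENPP1+ATP at 24 h, and 31.8 and 4.46 at 48 h, with log2 fold changes of -2.35 ± 0.12 (adjusted p = 8.8e-14) at 24 h and -2.83 ± 0.13 (adjusted p = 4.7e-15) at 48 h, so it moved against Podn. Ecm2, a matrix protein that lies beside Aspn on chromosome 13, went from 4.79 to 1.53 CPM at 24 h and from 3.93 to 1.35 at 48 h (log2 fold change -1.65 ± 0.31, adjusted p = 7.5e-05, and -1.52 ± 0.32, adjusted p = 3.2e-04). Tsukushi (Tsku), a secreted modulator of BMP and Wnt signals, rose from 33.1 to 45.7 CPM and from 28.4 to 78.5 (log2 fold change 0.47 ± 0.07, adjusted p = 9.7e-06, and 1.47 ± 0.08, adjusted p = 4.2e-14). The others tested, Chadl, Nyx and Optc, were not called at either time.

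Genes that build, modify, cleave or bind the proteoglycans were followed with ENPP1+ATP against vehicle medium, beside a median log2 fold change of -0.00 at 24 h and -0.03 at 48 h over all genes tested and, at 48 h, 20.8% of genes higher and 24.4% lower. Of the fibrillar collagens and partners that the cores bind, of 16 tested, 1 rose and 13 fell (median -0.90) at 48 h, and 1 rose and 13 fell (median -1.13) at 24 h. The largest called changes at 48 h were in Col14a1 (-2.50 ± 0.77) and Col11a1 (-1.90 ± 0.08), a fibril-associated and a minor fibrillar collagen, and Col2a1 (1.89 ± 0.47), the cartilage collagen, which was the gene that rose. Mean Col11a1 went from 430.1 to 115 CPM. For the enzymes that lengthen and sulfate chondroitin and dermatan chains, of 15 tested, 3 rose and 10 fell (median -0.27) at 48 h, and 1 rose and 8 fell (median -0.22) at 24 h, led by Chsy3 (-1.65 ± 0.24), Dsel (-0.82 ± 0.09) and Chst7 (-0.77 ± 0.16). Among keratan sulfate and tyrosine sulfation enzymes, of 8 tested, 3 rose and 0 fell (median 0.21) at 48 h, and 4 rose and 3 fell (median -0.02) at 24 h, with Chst1 (0.79 ± 0.08), B4galt1 (0.51 ± 0.05) and Tpst2 (0.31 ± 0.04) changing most at 48 h.

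For the enzymes of the linkage to the core, of 7 tested, 1 rose and 3 fell (median 0.07) at 48 h, and 1 rose and 2 fell (median -0.15) at 24 h, with B3galt6 (-0.98 ± 0.12), Pxylp1 (0.59 ± 0.06) and Xylt2 (-0.52 ± 0.07) the largest. In the supply of activated sulfate, of 5 tested, 1 rose and 4 fell (median -0.48) at 48 h, and 1 rose and 3 fell (median -0.26) at 24 h, with Papss2 (-0.89 ± 0.08), Slc35b3 (-0.58 ± 0.10) and Papss1 (-0.48 ± 0.06). Among proteases that cut these cores or their propeptides, of 12 tested, 6 rose and 5 fell (median -0.14) at 48 h, and 1 rose and 7 fell (median -0.37) at 24 h, and the collagenase Mmp13 (3.56 ± 1.02), the stromelysin Mmp3 (1.32 ± 0.36) and Tll2 (1.31 ± 0.24) changed most. Among receptors and ligands bound by decorin, biglycan, asporin or lumican, of 19 tested, 7 rose and 5 fell (median 0.09) at 48 h, and 1 rose and 11 fell (median -0.27) at 24 h. The integrin subunit Itga2 (2.51 ± 0.53) and the ATP-gated channel P2rx7 (1.91 ± 0.10) rose and the Toll-like receptor Tlr2 (-0.97 ± 0.09) fell, with mean P2rx7 at 18.9 and 70.9 CPM and mean Tlr2 at 69 and 35.2 with vehicle and ENPP1+ATP media. Of genes that respond to TGF-beta, of 10 tested, 1 rose and 6 fell (median -0.41) at 48 h, and 0 rose and 7 fell (median -0.31) at 24 h, with Ltbp2 (1.62 ± 0.24), Tgfbi (-1.22 ± 0.10) and Thbs1 (-0.65 ± 0.05) changing most.

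In NRVMs, 6 of the 7 listed members could be tested, as Aspn had 1 count over all 15 libraries, which allows no statement. Bgn was lower and Prelp higher with ATP, AMP and ENPP1+ATP media. In all, 3 of 6 members passed with ENPP1+ATP (1 higher and 2 lower, of all genes 56.0%, 28.6% higher and 27.4% lower), 2 with AMP (1 higher and 1 lower, of all genes 57.2%, 29.2% higher and 28.0% lower) and 4 with ATP (1 higher and 3 lower, of all genes 59.9%, 30.2% higher and 29.7% lower). These shares are near or below those of all genes, apart from ATP, where 1 member fewer would reverse the order. With ENPP1 the edgeR test called 0 members, with 0 at an unadjusted p under 0.05, 0 by DESeq2 and a background of 0%. These comparisons share 3 vehicle libraries.

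**Figure D3:**
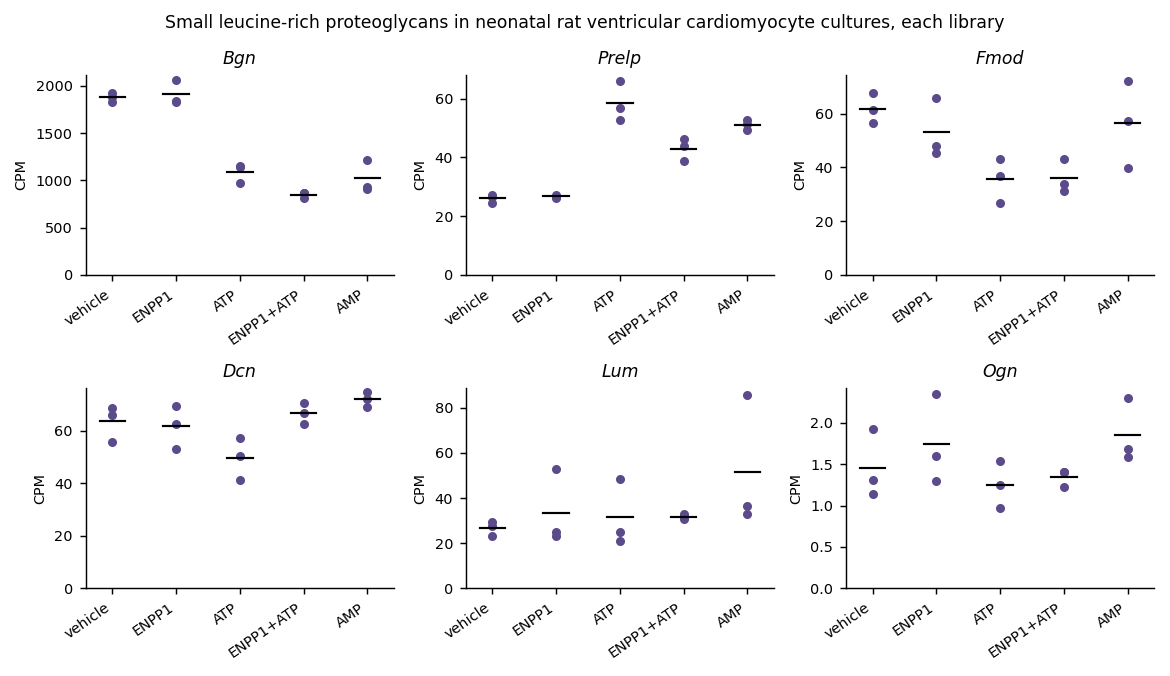
Level of the members tested in NRVMs (CPM, linear axis) by medium at 24 h, with a point for each library and a bar at the mean of 3 libraries. Bgn is lower and Prelp higher with ATP, AMP and ENPP1+ATP than with vehicle or ENPP1 medium. No change of Lum passed the test, although its AMP and ENPP1+ATP libraries lie above the vehicle range.

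Biglycan ranked 57 of 20158 genes by mean CPM, which is not corrected for transcript length, and made up 81.2% to 92.4% of the members' summed CPM. In the 3 libraries of each medium Bgn measured 1828, 1925 and 1879 CPM with vehicle medium, 1843, 2057 and 1827 with ENPP1, 969.7, 1156 and 1146 with ATP, 931, 909 and 1219 with AMP and 814, 866 and 867 with ENPP1+ATP. All libraries with ATP, AMP and ENPP1+ATP lay below all with vehicle and ENPP1, and the log2 fold changes were -1.14 ± 0.11 (adjusted p = 4.3e-06) with ENPP1+ATP, -0.88 ± 0.11 (adjusted p = 3.5e-05) with AMP and -0.78 ± 0.11 (adjusted p = 8.1e-05) with ATP. The 11 fibroblast markers listed for the rat summed to 24212 to 25601 CPM with vehicle, 8366 to 8749 with ENPP1+ATP, 11648 to 12358 with AMP and 10793 to 12105 with ATP, and the cardiomyocyte markers to 27552 to 28474, 24785 to 25904, 28084 to 30055 and 17061 to 18107. With vehicle medium the cultures labelled as myocytes thus held fibroblast transcripts at a level close to that of cardiomyocyte ones, and no listed marker was at 0 in all libraries. The part of the fibroblast markers in the Bgn change was not tested. Prelp measured 27.2, 26.5 and 24.6 CPM with vehicle medium, 26.6, 26.3 and 27.3 with ENPP1, 52.8, 56.9 and 66.2 with ATP, 51.5, 52.7 and 49.4 with AMP and 38.8, 46.4 and 43.9 with ENPP1+ATP. Its libraries with ATP, AMP and ENPP1+ATP lay above all others, opposite to the fibroblast markers, with log2 fold changes of 0.72 ± 0.08 (adjusted p = 7.7e-11) with ENPP1+ATP, 0.97 ± 0.08 (adjusted p = 1.1e-14) with AMP and 1.17 ± 0.07 (adjusted p = 1.5e-17) with ATP.

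Fmod in NRVMs measured 56.6, 61.3 and 67.7 CPM with vehicle medium, 48.1, 65.8 and 45.4 with ENPP1, 26.6, 43.2 and 36.7 with ATP, 57.2, 39.8 and 72.3 with AMP and 33.7, 43 and 31.1 with ENPP1+ATP. Its ENPP1+ATP and ATP libraries lay below the vehicle range and the AMP range overlapped it, with log2 fold changes of -0.78 ± 0.25 (adjusted p = 0.0208) with ENPP1+ATP, -0.13 ± 0.24 (adjusted p = 0.662) with AMP and -0.79 ± 0.25 (adjusted p = 0.0173) with ATP. The ENPP1+ATP call was lost without ENPP1+ATP replicate 1, ENPP1+ATP replicate 3 or vehicle replicate 3 (adjusted p = 0.0619 to 0.0725), and the ATP call without ATP replicate 1 or vehicle replicate 3 (adjusted p = 0.054 to 0.0653). Dcn measured 55.6, 66.1 and 68.8 CPM with vehicle medium, 53, 69.5 and 62.3 with ENPP1, 41, 50.3 and 57 with ATP, 72.1, 74.6 and 69.1 with AMP and 66.8, 62.4 and 70.4 with ENPP1+ATP, with overlap of ATP and vehicle libraries. Its log2 fold changes were 0.07 ± 0.13 (adjusted p = 0.67) with ENPP1+ATP, 0.18 ± 0.13 (adjusted p = 0.243) with AMP and -0.36 ± 0.13 (adjusted p = 0.0332) with ATP, and the ATP call was lost without ATP replicate 1, ATP replicate 2, vehicle replicate 2 or vehicle replicate 3 (adjusted p = 0.0657 to 0.106). Lum measured 23.2, 29.3 and 27.4 CPM with vehicle medium, 23, 52.9 and 24.8 with ENPP1, 21.1, 48.6 and 25 with ATP, 33, 36.5 and 85.7 with AMP and 31.8, 30.6 and 32.8 with ENPP1+ATP, where 1 library stood above the other 2 with AMP, ATP and ENPP1. The AMP and ENPP1+ATP libraries of Lum lay above the vehicle range and those of ATP and ENPP1 overlapped it, and no change passed, with log2 fold changes of 0.95 ± 0.46 (adjusted p = 0.106) with AMP, 0.25 ± 0.49 (adjusted p = 0.691) with ENPP1+ATP and 0.25 ± 0.48 (adjusted p = 0.676) with ATP. Ogn was at 0.965 to 2.35 CPM and was not called either.

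In the related lists, ENPP1+ATP medium in NRVMs is set beside a median of 0.01 over all genes tested, of which 28.6% were higher and 27.4% lower. Of the collagen partners 0 rose and 13 fell of 14 (median -1.35), led by Col11a1 (-2.92 ± 0.08), Col14a1 (-2.43 ± 0.08) and Fbn1 (-1.86 ± 0.11). For chondroitin and dermatan sulfate enzymes 4 rose and 9 fell of 15 (median -0.31), with Chsy3 (-3.02 ± 0.29), Dse (-1.15 ± 0.09) and Chst3 (-1.09 ± 0.10), and for keratan sulfate enzymes 0 rose and 2 fell of 8 (median -0.01), namely Chst2 (-1.18 ± 0.12) and B3gnt7 (-1.02 ± 0.24). Among linkage enzymes 4 rose and 2 fell of 7 (median 0.26), with Xylt1 (-1.13 ± 0.14), Pxylp1 (0.84 ± 0.06) and Xylt2 (0.44 ± 0.06), and in sulfate supply 1 rose and 2 fell of 5 (median -0.27), with Papss2 (-1.80 ± 0.13), Slc26a2 (0.78 ± 0.07) and Papss1 (-0.47 ± 0.06). All 9 proteases tested fell, among them Tll1 (-1.06 ± 0.18), Adamts1 (-0.92 ± 0.06) and Adamts5 (-0.92 ± 0.06). Of receptors and ligands 2 rose and 14 fell of 20 (median -0.51), including Itga2 (-3.88 ± 0.67), Lrp1 (-1.51 ± 0.07) and Tgfb3 (-1.39 ± 0.07), and of TGF-beta response genes 0 rose and 11 fell of 12 (median -0.60), including Postn (-1.51 ± 0.06), Ltbp2 (-1.49 ± 0.07) and Fn1 (-1.35 ± 0.06). Of the other family members 0 rose and 1 fell of 3 (median -0.41), which was Tsku (-0.67 ± 0.08). The fibroblast marker sum fell in the same libraries, and its part in these counts was not tested.

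Single cells show which nonmyocytes of the injured heart held the members' transcripts. The ENPP1CKO library had 7460 cell barcodes with 28039559 counts and the control library 5347 with 22746607, and 68 barcode sequences occurred in both. After removal of predicted doublets (154 and 73) and of poor barcodes, 7252 and 5236 cells fell into 18 clusters. These were made without the 9 members and the further genes of the family. Fibroblast markers named clusters 0 (led by C1qtnf3, Aspn, Cthrc1, Cilp and Meg3), 1 (Clec3b, Sfrp2, Gm26771, Pi15 and Meg3) and 8 (F830016B08Rik, Ifit3b, Iigp1, Sfrp2 and Aspn, with Ifit3b and Iigp1 being interferon-induced genes) as fibroblast-like, which is 3673 ENPP1CKO and 1801 control cells with medians of 4030 and 5094 counts. In these cells Enpp1 had 460 and 1245 counts, a log2 ratio of -2.15 (95% counting interval -2.31 to -1.99) of ENPP1CKO over control in CPM, which is the direction that the labels give. With 1 library per genotype no test between genotypes is possible, intervals cover counting error only, and how much separate animals differ is unknown.

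**Figure D4:**
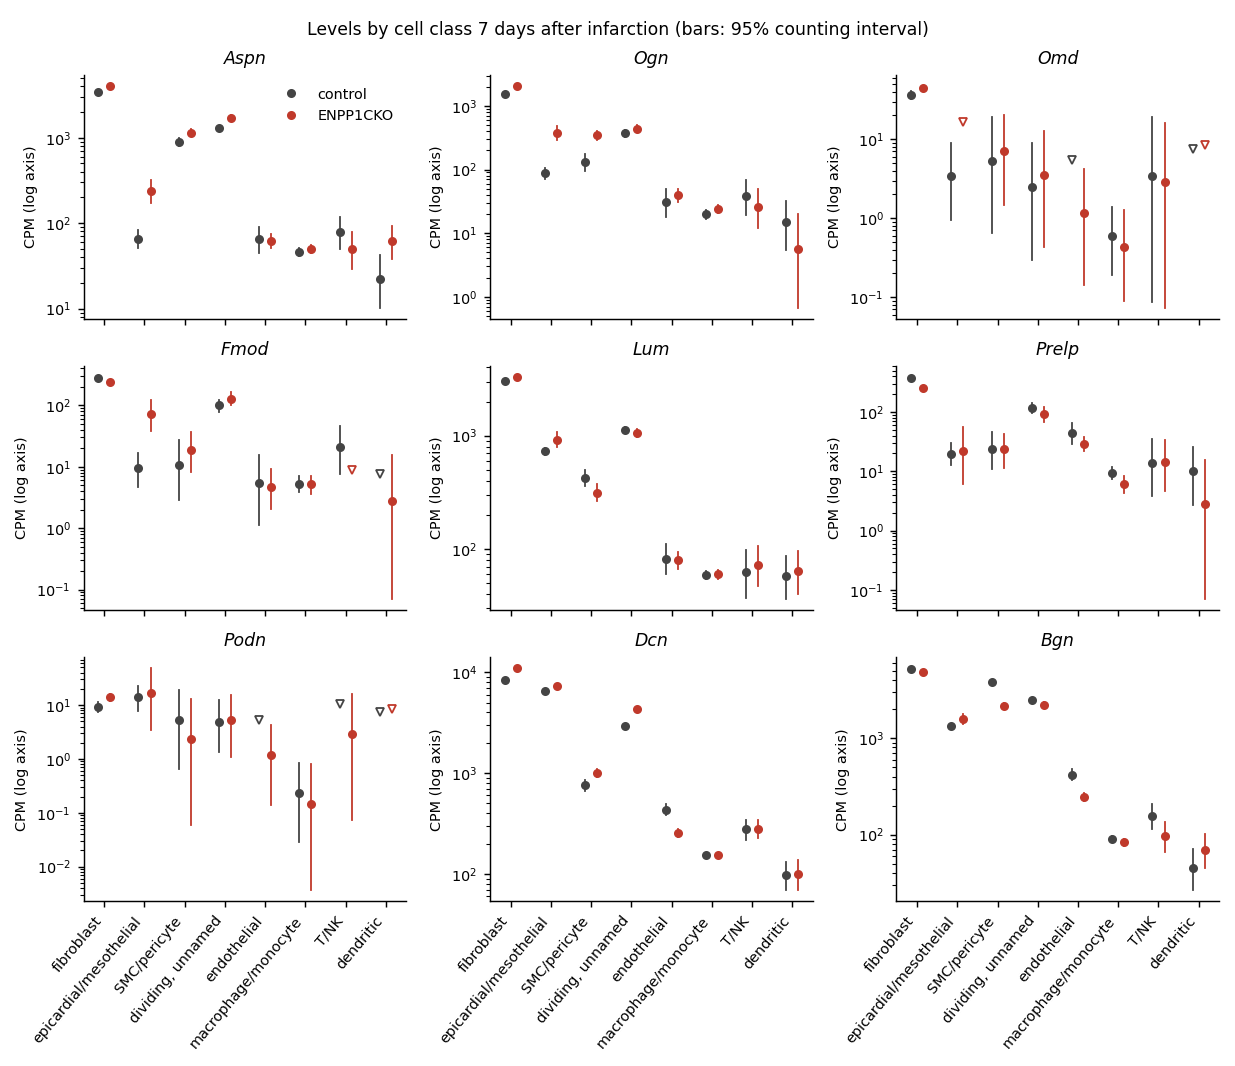
Level of each member (CPM of summed counts, log axis) in cell classes of the ENPP1CKO and control libraries, where open triangles mark classes with 0 counts, drawn at the level of 3 counts. B cell, neutrophil, cardiomyocyte and Schwann or glial-like classes are not drawn. Fibroblast-like cells are highest for most members and macrophage-like cells lie at 0.98% to 2.55% of the fibroblast-like level.

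Fibroblast-like cells held most of the family's transcripts. The 9 members together made up 2.57% (ENPP1CKO) and 2.22% (control) of the counts of these cells, against 0.0382% and 0.0384% in macrophage-like cells, which should lack them. Macrophage-like levels were 0.98% to 2.55% of the fibroblast-like ones, and levels of that order are read as background of free RNA. Counts of single molecules do not scale with transcript length, and by their CPM Dcn was the highest member in fibroblast-like cells, at 10892 in ENPP1CKO and 8327 in control, then Bgn (4872 and 5257), Aspn (4037 and 3419.7), Lum (3267 and 3009) and Ogn (2063 and 1518). Prelp (250.1 and 379), Fmod (241 and 279), Omd (44.3 and 36.4) and Podn (13.9 and 9.23) were lower. Lum, all but unmeasured in the immortalized CFs, was thus among the higher members in the heart.

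In clusters not named fibroblast-like several members stood above that background. Cluster 9 has no name, and genes of the cell cycle lead it. It met all 12 markers of another list, that of macrophages or that of endothelial cells, and 10 of the 12 fibroblast markers. The epicardial or mesothelial-like cluster met 9 fibroblast markers and the smooth muscle or pericyte-like one 8. The part of fibroblasts in the members' levels there was not tested. In the 83 ENPP1CKO and 99 control cells of cluster 9 the members made up 0.994% and 0.842% of the counts. Bgn was there at 45.4% and 47.1% and Aspn at 42.3% and 38.2% of the fibroblast-like level. Bgn was at 2159 CPM in ENPP1CKO and 3842 in control smooth muscle or pericyte-like cells (159 and 77 cells), or 44.3% and 73.1% of the fibroblast-like level. In Schwann or glial-like cells, of which there were only 9 and 8, Bgn was at 11.4% and 19.8%. Aspn in the smooth muscle or pericyte-like cells was at 28.4% and 26.1% of its fibroblast-like level. In the epicardial or mesothelial-like cells (29 and 117) Dcn was at 66.5% and 77.6%, Bgn at 32.6% and 25.4% and Lum at 28.2% and 24.2%, while Podn was at 119% and 150.0%, from only 3 and 16 counts. Prelp in endothelial-like cells was at 11.7% and 11.9%. Fibroblast-like cells contained 95.7% of all Bgn counts of the ENPP1CKO and 89.4% of the control library.

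Between the libraries, most members differed little in fibroblast-like cells. Past 1.5-fold with at least 20 counts were 1 member higher and 1 lower in ENPP1CKO, where 14.0% of all genes measured were past it, 6.87% higher and 7.14% lower. The lower one was Prelp, with a log2 ratio of -0.60 (95% counting interval -0.66 to -0.53), and the higher one Podn, with 0.59 (95% counting interval 0.23 to 0.95) from 224 and 91 counts. Both lie just past the threshold, and the member nearest to it from below was Ogn. Ogn (0.44, interval 0.42 to 0.47), Dcn (0.39, interval 0.38 to 0.40), Omd (0.28, interval 0.10 to 0.47), Aspn (0.24, interval 0.22 to 0.26) and Lum (0.12, interval 0.10 to 0.14) were higher in the ENPP1CKO library by less. Fmod (-0.21, interval -0.28 to -0.14) and Bgn (-0.11, interval -0.13 to -0.09) were lower by less. The median over the members was 0.24 and that over all genes 0.01.

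**Figure D5:**
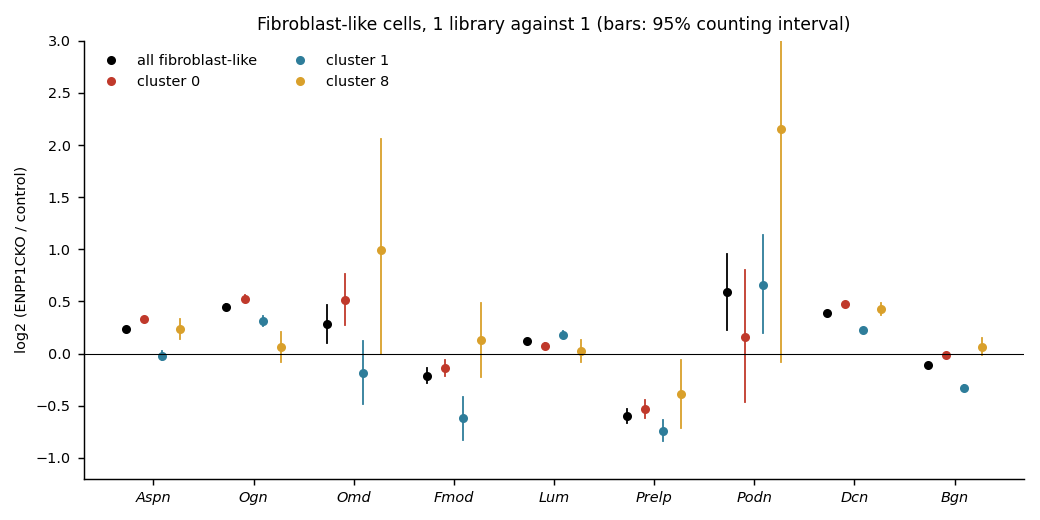
Log2 ratio of ENPP1CKO over control for each member in all fibroblast-like cells and in each fibroblast-like cluster, with 95% counting intervals and the axis ending at 3. Prelp lies below 0 in every cluster, whereas Aspn and Omd lie above 0 in cluster 0 and at or below it in cluster 1.

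Prelp was detected in 51.5% (49.9% to 53.1%) of ENPP1CKO cells called fibroblast-like and 68.5% (66.3% to 70.6%) of such control cells (95% exact binomial intervals), and in 2.02% (1.45% to 2.72%) and 3.09% (2.45% to 3.85%) of macrophage-like cells, whose medians were 3247.5 and 3213.5 counts. After every cell was thinned to 1000 counts the fibroblast-like shares were 19.7% (18.4% to 21.1%) and 32.5% (30.3% to 34.7%), so the order was the same at equal depth. In cluster 0 the Prelp ratio was -0.53 (interval -0.62 to -0.44), in cluster 1 -0.74 (interval -0.84 to -0.64) and in cluster 8 -0.38 (interval -0.71 to -0.06). Fmod was at -0.14 (interval -0.21 to -0.06) in cluster 0 and -0.62 (interval -0.83 to -0.41) in cluster 1, past 1.5-fold only in the latter. Podn, at 28.3 and 18 CPM in cluster 1 and 6.12 and 5.49 in cluster 0, had a ratio of 0.66 (interval 0.20 to 1.13) in cluster 1 and 0.16 (interval -0.46 to 0.80) in cluster 0. Aspn was 0.33 (interval 0.31 to 0.35) in cluster 0 and -0.02 (interval -0.06 to 0.02) in cluster 1, and Omd 0.51 (interval 0.27 to 0.76) and -0.18 (interval -0.48 to 0.12). In cluster 8 Aspn was 0.24 (interval 0.14 to 0.33), while Omd was 0.99 from 29 and 13 counts and Podn 2.15 (interval -0.08 to 5.38) from 10 and 2 counts. Of all genes, 16.6% were past 1.5-fold in cluster 0, 13.5% in cluster 1 and 23.0% in cluster 8. In fibroblast-like cells the 12 macrophage markers, each with counts in both libraries, summed to 415 CPM in ENPP1CKO and 716 in control, and the endothelial markers to 170.3 and 97.7, and their part in the ratios was not tested.

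The related genes in fibroblast-like cells differed past 1.5-fold as follows, with log2 ratios of ENPP1CKO over control and no test. Of all genes measured in these cells 14.0% were past it, 6.87% higher and 7.14% lower. Among other family members 2 higher and 2 lower of 7 (median -0.0023) were past it, namely Epyc (1.46), Ecm2 (0.75), Chad (-1.81) and Podnl1 (-2.23, from 7 and 20 counts), the first a cartilage proteoglycan. Of the collagen partners 2 higher and 2 lower of 16 (median -0.05) were, Col5a3 (0.89) and Col6a3 (0.71) being higher and Col11a1 (-1.32) and Col2a1 (-2.08) lower. TGF-beta response genes had 0 higher and 4 lower of 12 (median -0.47), the lower ones being Acta2 (-2.04), Tagln (-1.04), Tgfbi (-0.97) and Thbs1 (-0.83), the first pair smooth muscle contractile genes. Receptors and ligands had 3 higher and 4 lower of 19 (median -0.01), with Tgfbr1 (0.66), Tgfb1 (0.61) and Tlr4 (0.59) higher. The lower ones were Ccn4 (-0.76), Tgfb2 (-0.60), Tlr2 (-0.60) and Cd44 (-0.59). Proteases had 1 higher and 1 lower of 9 (median -0.04), which were Adamts4 (0.82) and Htra1 (-0.62). Chondroitin and dermatan sulfate enzymes had 1 higher and 0 lower of 13 (median -0.11), which was Chst15 (0.73, from 49 and 18 counts). Keratan sulfate enzymes had 2 higher and 0 lower of 7 (median -0.05), B3gnt2 (0.87) and Chst1 (0.59, from 32 and 13 counts). There were 0 higher and 0 lower of 7 (median -0.16) for the linkage and 0 higher and 0 lower of 5 (median -0.02) for sulfate supply.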

How the data were processed

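The authors deposited whole-number counts per gene, without normalization, for each CF and NRVM library and for each barcode of the single-cell libraries. The submitters' processing notes name STAR 2.5.3a, Cell Ranger and the builds mm10 and rn6, while the counting program is not given in the sources used here. The NRVM table lists rat genes, although the samples' organism label is Mus musculus. All sample columns were used (0 left out), and groups came from the labels.

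CF and NRVM counts were each analysed with edgeR 4.0.16 in R 4.3.3, with low genes removed by filterByExpr, TMM scaling and robust quasi-likelihood tests on all libraries of the experiment. Benjamini-Hochberg adjustment covered every gene tested, at a threshold of 0.05, and a standard error is the log2 fold change divided by the root of its F statistic. Replicates of 25 library pairs differed by more than counting noise (chi-square per degree of freedom 2.46 to 36.5), so none was counted as a duplicate.

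Barcodes with 200 or more genes and no more than 20% mitochondrial counts were clustered with scanpy 1.11.5 (2000 variable genes, 30 components, 15 neighbours, Leiden resolution 0.5) after removal of Scrublet doublets. Classes were named from marker lists, and counts were summed per class and library. Intervals are exact Poisson or binomial limits at 95%.

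The members and lists were chosen with earlier results of these data known. All members with enough counts were tested in every comparison, and from each related list up to 3 genes with the largest called change with ENPP1+ATP at 48 h (24 h in NRVMs) were named. A gene similar to Podn is not reported here. Alternatives were DESeq2 1.42.0, other scaling, no filter on low counts, a replicate block, each time fitted alone, single libraries left out, and for single cells other filters, resolution, scaling, thinning and single clusters. Scripts were tested on simulated counts.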

Additional observations from a re-analysis of the deposited data

Results flagged for a closer look

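For 6 pairs of member and medium in CFs the effect against vehicle medium differed between 48 h and 24 h, by edgeR's interaction test over all genes with the vehicle libraries of each time. With ENPP1+ATP the effect at 48 h minus that at 24 h was 1.258 on the log2 scale for Ogn, -1.873 for Fmod and 1.158 for Podn. Ogn was low at each time and less so at 48 h, Fmod passed the test against vehicle medium at 48 h and not at 24 h, and Podn was high at each time and more so at 48 h. With AMP the difference was 1.703 for Ogn, 2.278 for Prelp and 2.348 for Omd. Prelp was the member whose AMP effect had opposite directions at the 2 times. For each medium 3 of 9 members passed, a share close to the 30.0% (ENPP1+ATP) and 31.7% (AMP) of all genes that did. Of the 6 values, the Podn value and the Omd value lost their call without single libraries, as given with the comparison.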

How the results depend on the processing

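No change of a member in CFs or NRVMs turned direction where it was called under the alternatives run. Without the filter on low counts more members were called. There were 6 instead of 3 for the AMP interaction and 5 instead of 3 for the ENPP1+ATP interaction. For ENPP1+ATP against ATP at 48 h there were 7 instead of 4, for ATP between the times 5 instead of 3, and for ENPP1 at 48 h 1 instead of 0. The counts over all genes were smaller in the first 4 of these and went from 0 to 180 in the last. Other calls gained were Fmod with ENPP1+ATP, Prelp and Podn with ATP, and Omd for ENPP1+ATP against ATP, all at 24 h. Bgn was gained with AMP and with ATP at 48 h. Between the times Aspn was gained with AMP and ENPP1+ATP, and Bgn with AMP. Leaving out 1 library at a time gave 3 to 5 members for ENPP1+ATP against ATP at 24 h, 3 to 5 for ATP at 48 h, 1 to 3 for ATP between the times, and 2 to 4 for ATP in NRVMs. Of the members' calls, Lum with ENPP1+ATP at 24 h was lost with DESeq2 and without the filter (adjusted p = 0.0566 and 0.0908), Bgn between the times with ATP by DESeq2 and with its size factors in edgeR (0.069 and 0.0578), and, with no scaling factor, the Podn interaction (0.0608) and Dcn with ATP in NRVMs (0.119). DESeq2 also called 5 changes that edgeR did not: Podn with ATP at 24 h (0.0318), Fmod for ENPP1+ATP against ATP at 48 h (0.0467), Prelp with ATP (0.0219) and Aspn with AMP (0.0131) between the times, and the Prelp interaction for ENPP1+ATP (0.0317). The causes were not tested. Over all genes the counts for ENPP1 without the filter were 26 at 24 h and 14 in NRVMs, where the filtered test called 0.

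Same-numbered libraries did not deviate together (median correlation 0.0125 in CFs and 0.0143 in NRVMs), so they share only a number. With the replicate block 6 instead of 5 members were called for AMP between the times, 4 instead of 3 for the ENPP1+ATP interaction and 6 instead of 4 for ENPP1+ATP against ATP at 48 h, and the other counts of members were the same.

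In single cells 1 instead of 2 members passed 1.5-fold at Leiden resolution 1.0, as Podn was at 0.57. The same held with a minimum of 500 genes and a maximum of 10% mitochondrial counts (Podn at 0.54). It also held when the members and the further genes of the family took part in the clustering (Podn at 0.57). By single cluster, 0 passed in cluster 0, 3 in cluster 1 and, from few counts, 2 in cluster 8. The ratio changed sign for Aspn (-0.019) and Omd (-0.18) in cluster 1 and for Bgn (0.066) and Fmod (0.13) in cluster 8. Thinned to 1000 counts the Prelp ratio was -0.83. The CF and NRVM groups had 2 or 3 libraries. Counts were few for Lum in CFs (190 over 20 libraries) and for Podn in single cells (224 and 91 in fibroblast-like cells). Differences could therefore have been missed, and the smallest detectable one was not measured.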
